A study of Homo sapiens with 6 samples.

Results

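The genes described here are 36 genes of cholesterol and fatty acid synthesis, picked by gene symbol from their place in the pathway, with earlier results of these data known. All 36 were present among the 12308 different rows of the deposited RNA-seq table, and all 36 passed the filter on low values and entered the test over 11766 genes. They fall into 6 role groups: SREBP control (5 genes), the mevalonate and isoprenoid steps (7), the steps from squalene to cholesterol (12), sterol transport (3), fatty acid precursors and synthesis (4), and desaturation and elongation (5). Libraries were made from total RNA of 3 cultures each of OVCAR5 (an ovarian cancer cell line that is BRCA wild-type and p53 null) and of OVCAR5R, its descendant that resists prexasertib (Prex), an inhibitor of the checkpoint kinase CHK1. OVCAR5R had been grown over 3 to 4 months in rising Prex up to 3 µM, was kept at 2 µM, and spent 4 days or more without drug before use, so the comparison is between a parent and its resistant descendant in the absence of Prex. Both lines had the same RPMI1640 medium with 10% fetal bovine serum, 1 mM pyruvate, and 5 µg/ml insulin. The sources do not say whether OVCAR5R is a single clone. The replicates are cultures of the same 2 lines, so p-values measure the spread between cultures only.

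Cells make cholesterol from acetyl-CoA through mevalonate, isoprenoid pyrophosphates, squalene, and lanosterol, and fatty acids from the same acetyl-CoA through malonyl-CoA. Both pathways are governed by the SREBP transcription factors, which SCAP escorts from the endoplasmic reticulum to the Golgi for cleavage when membrane sterols are low, and which the INSIG proteins hold back when sterols are plentiful. SREBP targets are known to move together with the sterol supply of the cell.

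Estimated depth (in units of 1e6 reads) was 41.3, 35.8, and 41.0 in OVCAR5 replicates 1 to 3 and 53.6, 55.1, and 50.3 in OVCAR5R replicates 1 to 3. Depth thus differed along with the line, and its part in the differences was not tested. Fewer cells that express a gene and less RNA of it per cell cannot be told apart in bulk RNA. Markers were set beside the line labels, which they did not settle. Of 8 epithelial markers, 6 had a row. KRT8 and KRT18 were at 1031 and 1108 or more in each of the 6 libraries, and CLDN4 and KRT7 at 68.6 and 85.8 or more. EPCAM and KRT19 were low in 5 of the libraries, as given below. Of the 8 Müllerian and ovarian tumor markers 4 had a row. Their summed values lay between 11.3 and 34.0 in OVCAR5 and between 8.63 and 11.3 in OVCAR5R. Over the 6 libraries PAX8 was at 4.38 to 11.4, FOLR1 at 0.684 to 16.5, and MSLN at 0.244 to 6.11, while WT1 was under 1 throughout. One library stood apart. OVCAR5 replicate 2 had an EPCAM value of 597 against 11.9 to 31.7 in the other 5 libraries, a KRT19 value of 1341 against 3.09 to 10.7, and a summed epithelial marker value of 17308 against 2388 to 4816. Across the genes tested, it correlated at 0.898 and 0.883 (Pearson r) with OVCAR5 replicates 1 and 3. These sister cultures correlated at 0.955 with each other and at 0.921 to 0.947 with the OVCAR5R libraries. OVCAR5 replicate 2 correlated with the OVCAR5R libraries at 0.850 to 0.878. Counts are therefore also given without OVCAR5 replicate 2.

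Promoter sequences of 4 members that the results turn on are shown for orientation, because SREBPs act by binding sterol regulatory elements (SREs) beside boxes for the factor NF-Y. The bases are from RefSeq on GRCh38.p14. The 4 longer stretches end before the GENCODE 29 gene start, while the short second stretch of INSIG1 lies inside the gene by that annotation. Distances are counted from the RefSeq start. SREBF2 is taken from chr22:41832855-41833078 (plus strand), INSIG1 from chr7:155297628-155297775 (plus strand) with a second short stretch from chr7:155297814-155297837, HMGCS1 from chr5:43313513-43313662 (minus strand), and SCD from chr10:100346983-100347123 (plus strand). Capitals mark the SRE core TCACNCCAC, its E-box form TCACGTGA, and the NF-Y box CCAAT, each on either strand.
SREBF2: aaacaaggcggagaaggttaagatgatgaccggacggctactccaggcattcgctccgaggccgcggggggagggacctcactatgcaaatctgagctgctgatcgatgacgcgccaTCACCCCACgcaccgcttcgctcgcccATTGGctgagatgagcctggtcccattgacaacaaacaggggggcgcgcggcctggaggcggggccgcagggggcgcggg
INSIG1: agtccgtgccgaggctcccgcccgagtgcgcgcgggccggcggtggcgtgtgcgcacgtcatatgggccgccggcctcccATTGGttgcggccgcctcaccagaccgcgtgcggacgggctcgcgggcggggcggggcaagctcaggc
INSIG1 (around the E-box): gggcaggcTCACGTGAtgcgggcc
HMGCS1: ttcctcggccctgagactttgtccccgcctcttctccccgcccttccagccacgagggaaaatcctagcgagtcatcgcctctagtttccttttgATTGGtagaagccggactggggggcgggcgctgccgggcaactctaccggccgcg
SCD: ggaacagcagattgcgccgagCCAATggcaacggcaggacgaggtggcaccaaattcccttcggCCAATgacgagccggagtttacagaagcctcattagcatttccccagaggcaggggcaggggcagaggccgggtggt
The SRE core was found in 1 of the 32 members with a RefSeq window, SREBF2, where it began 133 bases before the RefSeq start, in the 250 bases searched on both strands. That is 1 of 44 member windows (2.27%), against 0.883% of all 35116 windows and 0.908% of those of the listed genes. The E-box form was also found in 1 of 44 member windows (2.27%), that of INSIG1, where it began 56 bases before the RefSeq start, against 0.854% of all windows and 1.52% of those of the listed genes. A single window is too few to set either motif apart from these shares. Only these exact letters were searched, so the lack of a match does not mean that a member lacks an SRE. The NF-Y box was found in 26 of 44 member windows (59.1%), against 32.0% of all windows and 32.7% of those of the listed genes. The GC box GGGCGG, a site for SP1, was found in 38 of the 44 windows (86.4%), against 42.6% of all windows and 64.3% of those of the listed genes. Some genes have several overlapping windows, so shares were also taken by gene. The NF-Y box was in 22 of the 32 members with a window (68.8%), against 41.8% of the listed genes with one. The GC box was in 29 (90.6%), against 76.5%. Matches are letters and not evidence of binding. ACAT2, FDFT1, SQLE, and FASN had no window here.

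**Figure D1:**
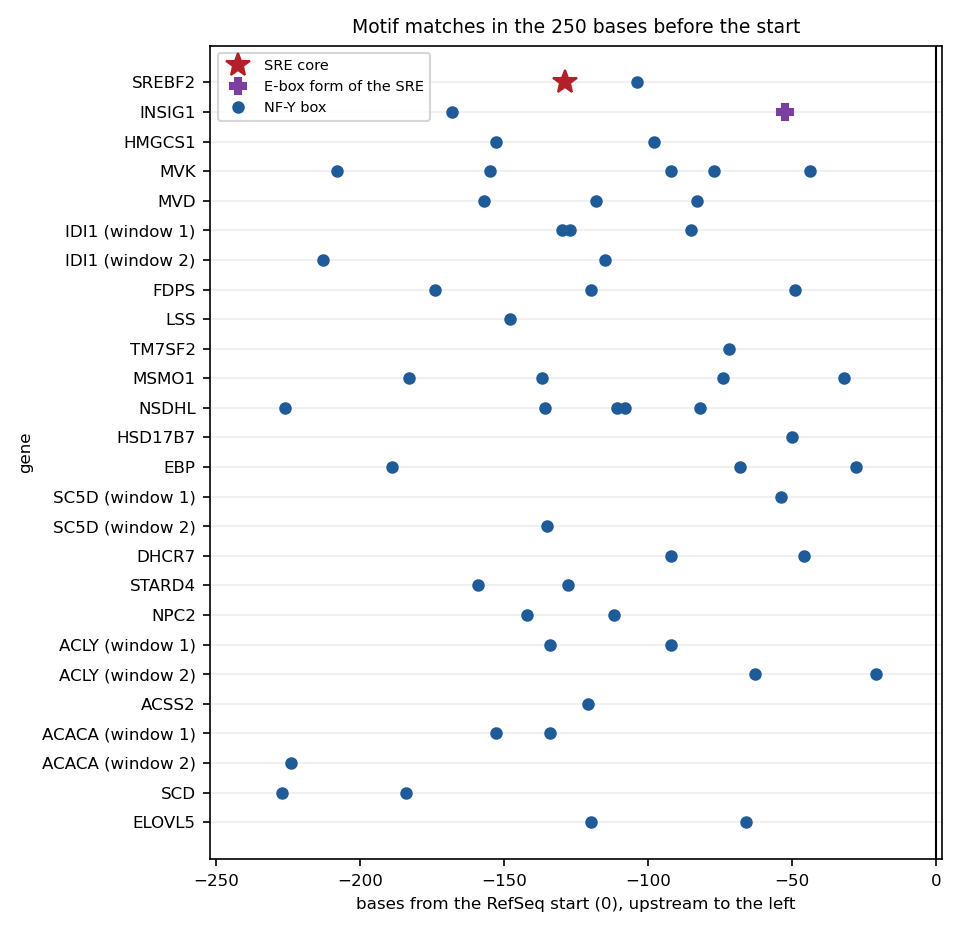
Motif matches in the 250 bases before the RefSeq start of the members that hold an SRE core, its E-box form, or an NF-Y box. The x axis is the distance in bases from the start (0), each row is a gene or 1 of its windows, and symbols mark the middle of a match. The SRE core is in SREBF2, the E-box form in INSIG1, and NF-Y boxes are spread over 26 windows.

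OVCAR5R was compared with OVCAR5 to ask how these genes differ between the resistant line and its parent. The lipid synthesis genes were mostly lower in OVCAR5R by their mean, but OVCAR5 replicate 3 was also lower than its sister cultures for most of them. The median log2 fold change over the 36 genes was -0.72, on the scale of log2(value + 1), against -0.01 over all genes tested. By their mean, 33 of the 36 genes were lower in OVCAR5R, against 50.8% of all genes. None of the members reached significance after adjustment: 0 of 36 passed 0.05 in limma, as did 0.119% of all genes (0.102% in the lower and 0.017% in the higher direction). At an unadjusted p under 0.05 there were 11 members, all lower in OVCAR5R, against 6.25% of all genes in that direction, 4.14% in the other, and 10.4% in either. Every OVCAR5R library was below every OVCAR5 library for 7 members, against 8.18% of all genes (16.6% in either direction), and above for 0 members, against 8.4%. The exact two-sided permutation test of these 7 genes gave p = 0.1, the smallest it allows for 3 against 3 libraries. That value follows from the lack of overlap by which they were counted, and adds nothing to it.

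These counts depended on single libraries, above all on OVCAR5 replicate 3. Without it, the median of the members was -1.11, 22 members had an unadjusted p under 0.05 (8.27% of all genes in the lower direction), and 24 had no overlap between the lines (16.4% of all genes in the lower direction). Without OVCAR5 replicate 2, which stood apart on markers, the median was -0.41, 9 members had an unadjusted p under 0.05, 8 of them lower (6.52% of all genes in that direction), and 9 were lower with no overlap (13.7% of all genes). Without OVCAR5 replicate 1 there were 5 members at an unadjusted p under 0.05, all lower (4.97% of all genes in that direction). Without OVCAR5R replicate 3 there were also 5, all lower (5.11% of all genes). Without OVCAR5R replicate 2 there were 15 members with no overlap, all lower (12.9% of all genes). No member had an adjusted p under 0.05 with limma in any of these fits, the lowest being 0.0761.

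**Figure D2:**
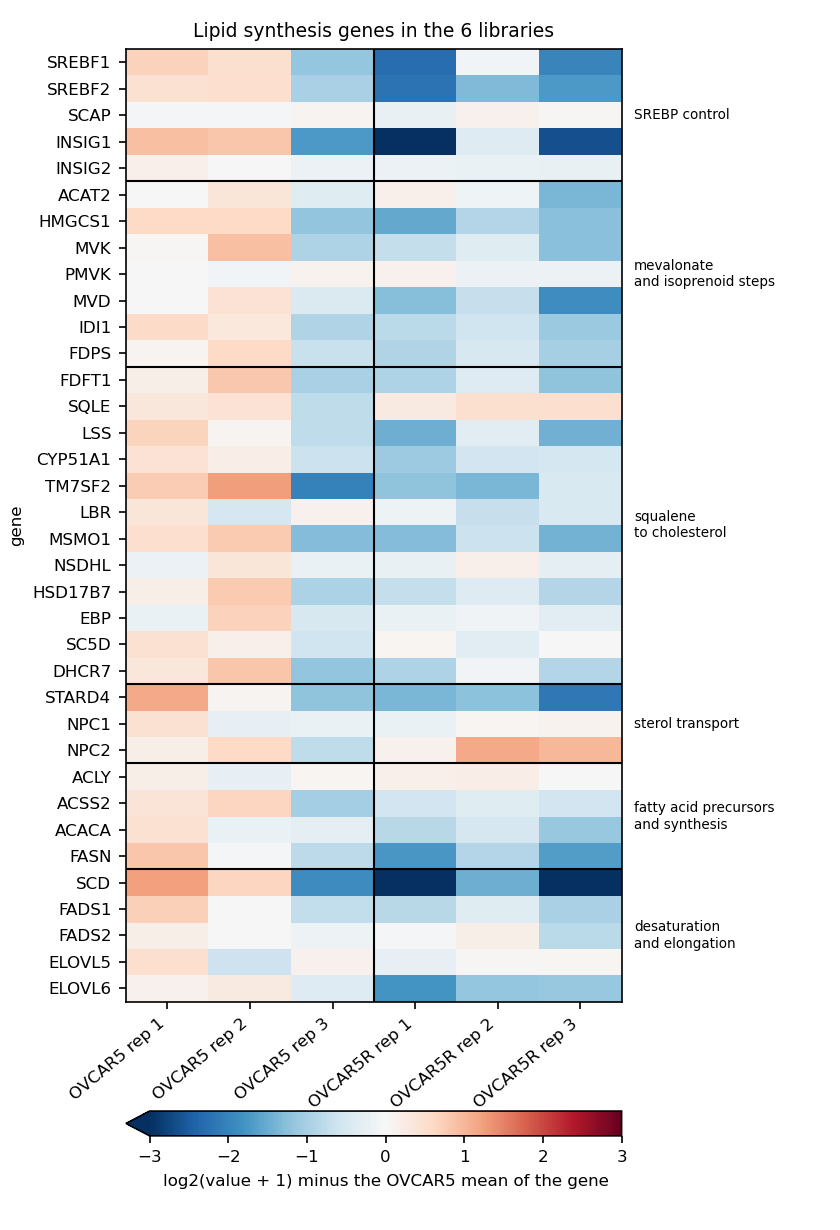
Heat map of the 36 lipid synthesis genes (rows, grouped by role) in the 6 libraries (columns). Color is log2(value + 1) minus the OVCAR5 mean of the gene, capped at -3. OVCAR5 replicates 1 and 2 are mostly red, while OVCAR5 replicate 3 is mostly blue like the OVCAR5R libraries, and SQLE and NPC2 are not blue in OVCAR5R.

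Among the SREBP control genes, the factors themselves and INSIG1 were lower by their mean, while the escort SCAP differed little. SREBF2 encodes SREBP2, the main driver of sterol synthesis genes, and carries the SRE core shown above. The deposited signal of SREBF2, given here and afterwards for replicates 1 to 3 in order, read 183, 189, and 66.7 in OVCAR5 against 27.7, 52.1, and 39.4 in OVCAR5R. The lines did not overlap, and OVCAR5 replicate 3 lay nearer to OVCAR5R than to its sister cultures. The difference, OVCAR5R minus OVCAR5, was -1.75 in log2 (SE 0.43, 95% interval -2.73 to -0.77, limma adjusted p = 0.260). SREBF2 lies on chromosome 22 (chr22:41833079-41907308, GENCODE 29 on GRCh38), where the 160 other tested genes within 10 Mb lay at -0.54 by their median log2 fold change. In OVCAR5R replicates 1, 2, and 3 these neighbors were at -0.87, -0.69, and -0.15 relative to the OVCAR5 mean. The part of this regional shift in the SREBF2 value was not tested. SREBF1 encodes SREBP1, the driver of fatty acid genes. It had values of 223, 194, and 61.0 in OVCAR5 and 27.4, 131, and 34.2 in OVCAR5R. OVCAR5R replicate 2 was above OVCAR5 replicate 3, so the lines overlapped (log2 fold change -1.45, interval -2.98 to 0.07).

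INSIG1, a retention factor of the SREBP system and itself an SREBP target, spanned the widest range of this group. Its values were 113, 107, and 17.5 in OVCAR5 and 4.62, 45.4, and 8.87 in OVCAR5R. Within OVCAR5 the highest value was 6.45-fold the lowest, and within OVCAR5R it was 9.84-fold, so the SE was 0.90 around a log2 fold change of -2.16 (limma adjusted p = 0.463). INSIG2, the isoform that is not a typical SREBP target, was nearly level, at 49.4, 44.6, and 39.0 in OVCAR5 and 39.0, 38.4, and 38.0 in OVCAR5R. The lines did not overlap, but OVCAR5 replicate 3 and OVCAR5R replicate 1 met to 3 digits, and the log2 fold change was -0.19 (interval -0.63 to 0.25). SCAP had values of 69.5, 68.1, and 75.8 against 60.9, 77.4, and 72.7, a log2 fold change of -0.02 (interval -0.46 to 0.42).

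**Figure D3:**
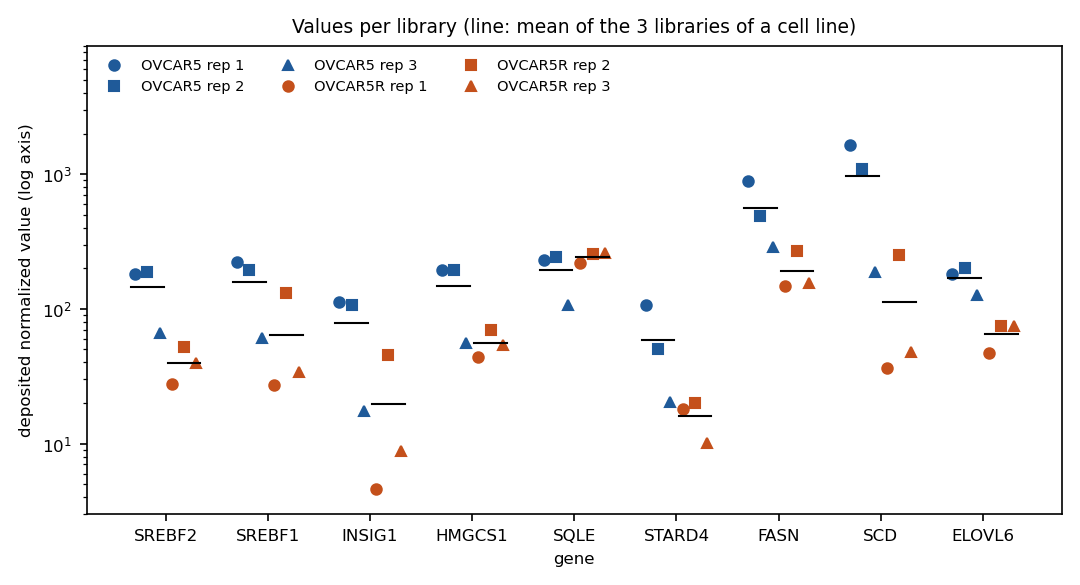
Deposited normalized values (y axis, log scale) of 9 genes in each library. Blue symbols are the 3 OVCAR5 and orange symbols the 3 OVCAR5R libraries, symbol shape gives the replicate number, and black lines are the means. For 8 of the genes OVCAR5 replicates 1 and 2 lie above all OVCAR5R libraries, while SQLE is at 219 to 258 in OVCAR5R.

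For the mevalonate and isoprenoid steps the median difference was -0.79 in log2, and all 7 genes were lower in OVCAR5R by their mean. MVD, which decarboxylates mevalonate pyrophosphate, had values of 65.6, 89.8, and 48.7 in OVCAR5 and 26.6, 40.7, and 17.3 in OVCAR5R. These did not overlap (log2 fold change -1.28, SE 0.35, limma adjusted p = 0.298). Its 70 tested neighbors within 10 Mb on chromosome 16 had a median of -0.59. In OVCAR5R replicates 1, 2, and 3 they were at -0.35, -0.42, and -1.02 relative to the OVCAR5 mean. Their part in the MVD value was not tested. HMGCS1, which makes HMG-CoA and which has 2 NF-Y boxes in its searched window, 1 of them in the stretch printed above, had values of 195, 194, and 55.8 in OVCAR5 and 43.8, 69.1, and 53.6 in OVCAR5R. OVCAR5 replicate 3 was inside the OVCAR5R range, while OVCAR5 replicate 1 was 3.49-fold OVCAR5 replicate 3. The log2 fold change of HMGCS1 was -1.22 (interval -2.31 to -0.13), with -0.02 for its neighbors. FDPS, the farnesyl pyrophosphate synthase, had values of 193, 276, and 115 against 97.2, 131, and 91.4 (log2 fold change -0.79). It has 8 named pseudogenes with which reads may be shared. IDI1, MVK, and ACAT2 had log2 fold changes of -0.84, -0.78, and -0.45, each with an interval that includes 0. Of the exonic bases of ACAT2, 52.3% also belong to genes on the other strand, and the strand of the counting is not given in the sources used here. PMVK, the kinase before MVD, averaged 54.8 ± 3.49 in the parent and 52.4 ± 6.91 in the resistant line (SD, n = 3 each). The interval of its log2 fold change was -0.51 to 0.38.

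From squalene to cholesterol, 11 of 12 genes were lower by their mean and 1 was higher, with a median of -0.65, and no gene was free of overlap. LSS, which closes squalene epoxide to lanosterol, had values of 136, 89.3, and 49.6 in OVCAR5 and 29.7, 67.5, and 30.3 in OVCAR5R, a log2 fold change of -1.08 (interval -2.08 to -0.08). It was the only gene of this group with an unadjusted p under 0.05. SQLE, the rate-limiting squalene epoxidase, went the other way by its mean. Its values were 231, 244, and 107 in OVCAR5 and 219, 256, and 258 in OVCAR5R, so only OVCAR5 replicate 3 was low, and without it the log2 fold change was 0.04 in place of 0.42 (interval -0.33 to 1.17). The 44 tested neighbors of SQLE on chromosome 8 had a median of 0.31. Its partner in the preceding step, FDFT1 (squalene synthase), also on chromosome 8 but on the other arm, had a log2 fold change of -0.84 (interval -1.85 to 0.18).

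The later sterol enzymes were not alike, and 3 were singled out after their values were seen. MSMO1, a C4-demethylation oxidase, had values of 37.8, 46.0, and 10.1 in OVCAR5 and 10.1, 16.4, and 9.11 in OVCAR5R. TM7SF2, a sterol reductase, had values of 50.5, 70.9, and 6.41 in OVCAR5 and 11.97, 10.8, and 21.1 in OVCAR5R, so OVCAR5 replicate 3 was the lowest library and 11.1-fold below replicate 2. DHCR7, which makes cholesterol from its last precursor, had values of 172, 245, and 60.0 against 71.1, 130, and 74.1. In these 3 genes OVCAR5 replicates 1 and 2 lay above every OVCAR5R library and replicate 3 did not. Their log2 fold changes were -1.12, -1.01, and -0.63, with intervals that include 0. CYP51A1, the lanosterol demethylase, had -0.73 (interval -1.46 to 0.01), and HSD17B7 had -0.67. LBR, a reductase that doubles as a nuclear envelope protein, had -0.43 and was lowest in replicate 2 among the OVCAR5 libraries. OVCAR5 replicates 1 and 3 of NSDHL were close, at 26.9 and 26.3, and OVCAR5 replicate 1 of EBP (50.0) was inside the OVCAR5R range of 45.3 to 53.5. The log2 fold changes of EBP, NSDHL, and SC5D lay between -0.22 and -0.08. HSD17B7 and CYP51A1 have 2 and 3 named pseudogenes. TM7SF2 and CYP51A1 share exonic bases with other genes on the same strand.

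The sterol transport genes did not share a direction. STARD4, a cytosolic sterol carrier under SREBP2 control, had values of 107, 50.5, and 20.2 in OVCAR5 and 18.0, 20.04, and 10.1 in OVCAR5R. The lines were separated only by the gap between 20.2 and 20.04, and the lines differed by -1.57 in log2 (SE 0.55, limma adjusted p = 0.390). NPC1, the lysosomal membrane exporter of cholesterol, was at 63.8 ± 19.0 and 62.1 ± 6.70 (SD, n = 3 each). NPC2, its soluble partner, had values of 109, 147, and 56.1 in OVCAR5 and 106, 215, and 193 in OVCAR5R. The log2 fold change of NPC2 was 0.76 (interval -0.16 to 1.68), and its 105 tested neighbors on chromosome 14 had a median of 0.45, whose part in the NPC2 value was not tested.

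In fatty acid synthesis, the committed steps were lower by their mean and the steps that supply acetyl-CoA were mixed. FASN, the fatty acid synthase, had values of 890, 491, and 289 in OVCAR5 and 148, 270, and 157 in OVCAR5R. The lines did not overlap, although OVCAR5 replicate 3 and OVCAR5R replicate 2 were close (log2 fold change -1.44, SE 0.42, limma adjusted p = 0.308). ACACA, the acetyl-CoA carboxylase that makes malonyl-CoA, had values of 280, 176, and 168 in OVCAR5 and 113, 142, and 91.1 in OVCAR5R, again without overlap (log2 fold change -0.83, SE 0.27, limma adjusted p = 0.359). Both genes are on chromosome 17, where their neighbors had medians of 0.03 and 0.10. ACLY, which cleaves citrate to acetyl-CoA, was at 243 ± 34.9 and 261 ± 18.2 (SD, n = 3 each), and ACSS2, which uses acetate, had a log2 fold change of -0.50 (interval -1.45 to 0.44).

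The desaturase SCD had the lowest log2 fold change of the 36 genes, and ELOVL6 had the lowest p. SCD, the delta-9 desaturase that makes oleate, had values of 1641, 1089, and 189 in OVCAR5 and 36.4, 250, and 48.2 in OVCAR5R. OVCAR5R replicate 2 lay above OVCAR5 replicate 3, so the lines overlapped, and the highest OVCAR5 value was 8.68-fold the lowest. The lines differed by -3.18 in log2 (SE 0.92, interval -5.30 to -1.05, limma adjusted p = 0.306), and the neighbors of SCD had a median of -0.02. SCD has 1 named pseudogene with which reads may be shared. ELOVL6, which elongates palmitate to stearate ahead of SCD, had values of 181, 202, and 126 in OVCAR5 and 47.2, 74.2, and 74.9 in OVCAR5R. The highest value was 1.60-fold the lowest in OVCAR5 and 1.58-fold in OVCAR5R, and the lines were well apart, a difference of -1.36 in log2 (SE 0.27, limma adjusted p = 0.178). The 51 tested neighbors of ELOVL6 on chromosome 4 (the gene is at chr4:110045846-110199199) had a median of -0.77, and in OVCAR5R replicates 1, 2, and 3 they were at -0.84, -0.89, and -0.75 relative to the OVCAR5 mean. Their part in the ELOVL6 value was not tested. FADS1, the delta-5 desaturase, had a log2 fold change of -0.72 (interval -1.56 to 0.12), and FADS2, which overlaps it on the other strand, had -0.23. FADS2 also has 1 named pseudogene and shares exonic bases with FEN1 on the same strand. ELOVL5, which elongates polyunsaturated fatty acids, had -0.05 (interval -0.73 to 0.64).

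**Figure D4:**
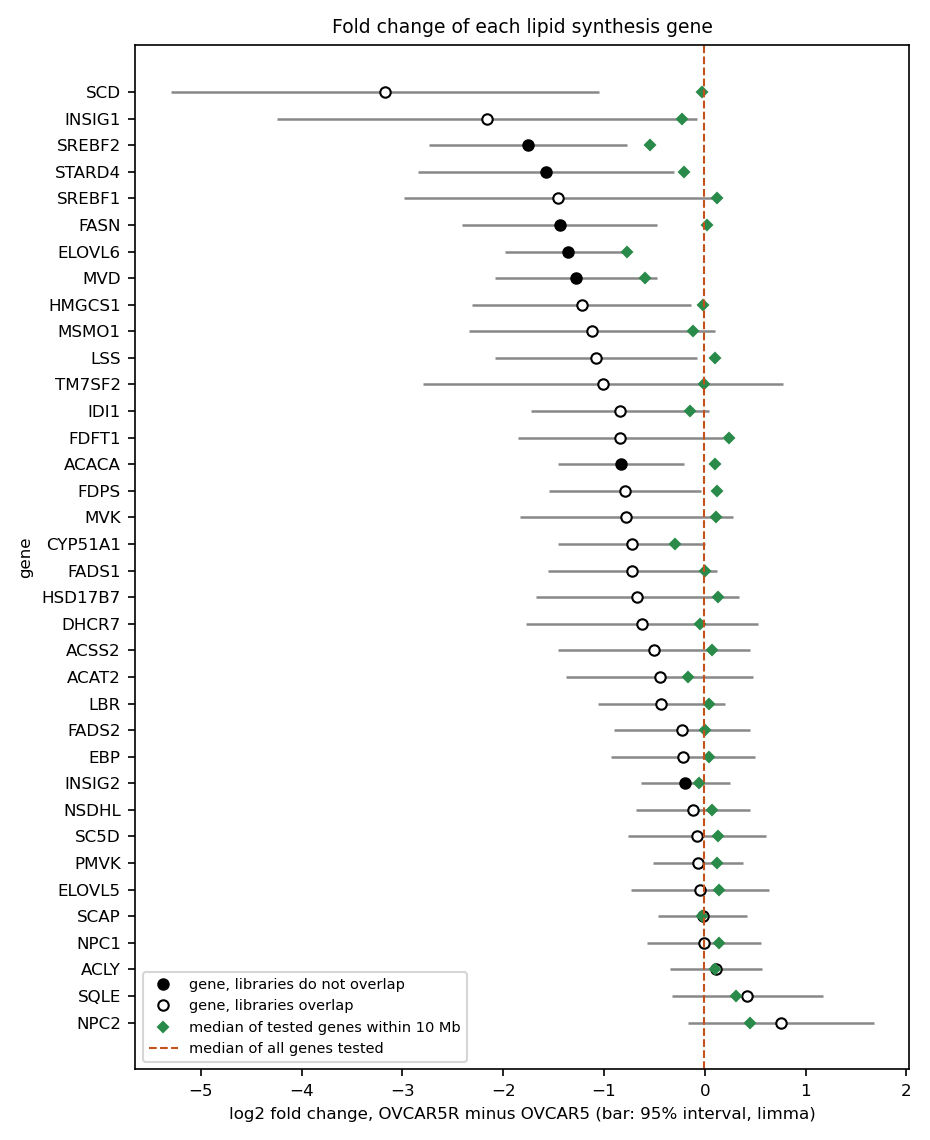
Log2 fold change of each gene in OVCAR5R minus OVCAR5 (x axis) with its 95% interval from limma. Filled circles are genes whose libraries do not overlap, open circles those that do, green diamonds are the median log2 fold change of tested genes within 10 Mb, and the dashed line is the median of all genes tested (-0.01). The interval excludes 0 for 11 genes, and the diamonds are farthest left for ELOVL6, MVD, and SREBF2.

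The regional medians were examined for all 36 genes. They lay below -0.5 for 3 members, ELOVL6, MVD, and SREBF2, which are also 3 of the 7 genes without overlap. They were above 0.3 for 2 members, NPC2 and SQLE, which are also the genes with the highest log2 fold changes. The next highest regional median, 0.24, was that of FDFT1, which itself had a log2 fold change of -0.84. For FASN, ACACA, SCD, HMGCS1, and LSS the regional median was between -0.02 and 0.10. The neighbors of STARD4 and INSIG1 had medians of -0.20 and -0.23, but these differed between the OVCAR5R libraries. Relative to the OVCAR5 mean, replicates 1, 2, and 3 were at 0.12, -0.50, and -0.28 for STARD4. For INSIG1 they were at -0.76, 0.09, and 0.02. The neighbors of CYP51A1, which had a log2 fold change of -0.73, had a median of -0.30. They were at -0.83, -0.03, and -0.03 in these replicates. The part of the regions in the values of the members was not tested.

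The libraries were then set side by side within each line. Relative to the OVCAR5 mean of each gene, the members had a median of 0.38, 0.36, and -0.74 across OVCAR5 replicates 1 to 3 and of -0.82, -0.37, and -0.93 across OVCAR5R replicates 1 to 3. OVCAR5 replicate 3 thus fell within the OVCAR5R range, while over all genes tested the corresponding medians were between -0.01 and 0.01. OVCAR5 replicate 3 was the lowest of the 3 parental libraries for 30 members, against 30.8% of all genes. OVCAR5 replicate 1 was above every OVCAR5R library for 28 members, replicate 2 for 27, and replicate 3 for 9, against 31.2%, 35.1%, and 25.02% of all genes. On the epithelial markers above, OVCAR5 replicates 1 and 3 were alike and replicate 2 stood apart, so the split by lipid genes and the split by these markers fell on different libraries. In OVCAR5R, replicate 2 was the highest of the 3 libraries for 25 members, against 33.2% of all genes. The highest OVCAR5 value was at least 2-fold the lowest for 24 members (66.7%, against 28.5% of all genes), and in OVCAR5R for 8 (22.2%, against 17.4%). The median SD on the log2 scale was 0.68 in OVCAR5 and 0.32 in OVCAR5R for the members, and 0.34 and 0.25 for all genes.

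**Figure D5:**
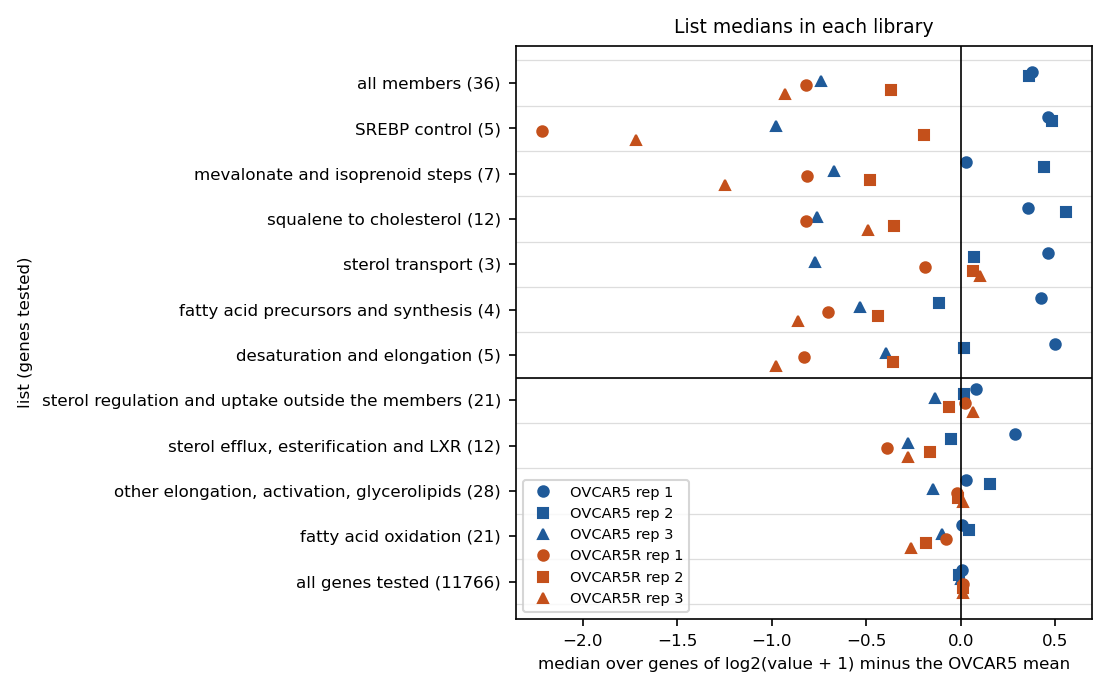
Median over each list of log2(value + 1) minus the OVCAR5 mean (x axis) in each library, for the 36 members, their 6 role groups, 4 lists of other lipid genes, and all genes tested. Blue symbols are OVCAR5, orange symbols OVCAR5R, and shape gives the replicate. OVCAR5 replicate 3 lies at -0.74 over the members, among the OVCAR5R libraries, while all libraries are close to 0 over all genes.

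Other lipid genes were counted from 4 lists. In limma 0 of them passed 0.05 after adjustment, against 0.119% of all genes, and the counts at an unadjusted p are given with each list. Over all genes tested, 6.25% were lower and 4.14% higher at an unadjusted p under 0.05. Without overlap, 8.18% of all genes were lower and 8.4% higher. Of 21 other genes of sterol regulation and uptake, 2 were lower and 1 higher at an unadjusted p under 0.05, with a median log2 fold change of -0.17. Of these 21 genes, RNF145 was lower without overlap (-0.44, unadjusted limma p above 0.05), and SCARB1, the HDL receptor, was higher without overlap (0.60).

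Of 12 genes of sterol efflux, esterification, and LXR signaling, 2 were lower at an unadjusted p under 0.05 (6.25% of all genes), with a median of -0.22. NR1H3, which encodes the sterol sensor LXR alpha, had values of 38.6, 29.9, and 26.9 in OVCAR5 and 8.36, 21.2, and 11.95 in OVCAR5R (log2 fold change -1.22, SE 0.34). MYLIP (-0.55) and RXRA (-0.30) were also without overlap. Among 28 further genes of elongation, activation, and glycerolipid synthesis the median was -0.03, with 5 lower and 1 higher at that threshold. SLC25A1, the mitochondrial citrate exporter that feeds ACLY, had values of 185, 212, and 118 in OVCAR5 and 32.1, 40.1, and 114 in OVCAR5R (-1.64, SE 0.46), and lies on chromosome 22 like SREBF2, with a regional median of -0.40. ACSL5 (-1.12) and DGAT2 (-0.88) were lower without overlap, and ACSL1 (0.71), HACD2 (0.28), and AGPAT1 (0.23) were higher without overlap.

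Of 21 genes of fatty acid oxidation, 4 were lower and 0 higher at an unadjusted p under 0.05, with a median of -0.15. Over all genes the shares were 6.25% and 4.14%. HADH, a mitochondrial dehydrogenase of this pathway, had values of 39.0, 58.9, and 38.6 in OVCAR5 and 21.9, 18.3, and 17.7 in OVCAR5R (log2 fold change -1.17, SE 0.24, limma adjusted p = 0.182), and its 50 tested neighbors on chromosome 4 had a median of -0.75. DECR1 (-0.83), ACADM (-0.58), ETFB (-0.49), and PPARA (-1.43) were also lower without overlap. PPARA, a fatty acid sensing receptor, lies on chromosome 22 with a regional median of -0.54.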

How the data were processed

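RNA-seq of total RNA from 3 OVCAR5 and 3 OVCAR5R cultures was analyzed from the 1 table the authors deposited, which holds a normalized signal per gene and library on a linear scale. Per the supplementary methods a quartile normalization and a log transform preceded the analysis, although the deposited signal is linear. The submitters' processing notes name the build hg38. The aligner, counter, and gene filter are not given in the sources used here. The signal is not whole-number counts, so no count test was run. Depth was estimated from the step that 1 read was worth in each library. About 63.0% to 67.1% of values were whole multiples of it (tolerance 0.01). The step was picked by such a share, so the share is not a check on the depth. One copy of a repeated row was dropped (12309 to 12308 rows).

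The scale was log2(value + 1). After removal of genes that reached 1 in fewer than 3 libraries, the rest were fitted with limma version 3.58.1 in R version 4.3.3 (eBayes with trend, no covariates, Benjamini-Hochberg adjustment over all 11766 genes, threshold 0.05). Fold changes of low genes are understated on this scale. Libraries do not overlap when all 3 of one line lie beyond all 3 of the other. Positions and neighbors within 10 Mb, taken between gene midpoints, came from GENCODE 29 on GRCh38. Promoters came from RefSeq, with 250 bases searched per window. Figures used matplotlib version 3.10.9 in Python version 3.11.15.

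The members and gene lists were chosen with earlier results of these data known. Values per library are given for members without overlap or with an unadjusted p under 0.05, for SREBF1, SREBF2, SCAP, INSIG1, SQLE, ACACA, FASN, and SCD, and for other pathway genes without overlap in brief. Some genes that this rule picks are not reported here. MSMO1, TM7SF2, DHCR7, and NPC2 were added after their values were seen. Alternatives were quantile and 75th percentile scaling, no trend, other filters, a pseudocount of 0.1, the replicate block, and each library left out. The counts of members without overlap and at an unadjusted p were added to these after seeing the data. Endothelial and adipocyte marker lists (4 genes each) had 0 rows, the fibroblast and leukocyte lists 2 rows each with sums of 1.77 to 15.3 and 56.5 to 76.1, the intestinal list 2 of 6 rows with sums of 4.77 to 258, the highest in OVCAR5 replicate 2.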

Additional observations from a re-analysis of the deposited data

How the results depend on the processing

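No member had an adjusted p under 0.05 with limma under any of the 13 alternatives, and 27 of the 36 kept the sign of their log2 fold change in all 13. The count over all genes tested was 14. It was 5 with the replicate block and between 0 and 29 with a library left out. The median of the members stayed between -0.73 and -0.70 under the other scalings, filters, trend, and pseudocount, and lay between -1.11 and -0.41 with a library left out. The members at an unadjusted p under 0.05 were 11, 10 or 11 under those settings, 16 with the replicate block, and 5 to 22 with a library left out. Over all genes that share was 10.1% to 10.8% under those settings, 11.1% with the block, and 7.34% to 14.6% with a library left out. The members without overlap were 7, then 5 to 7 under those settings (6.88% to 8.18% of all genes lower) and 7 to 24 with a library left out, where 12.1% to 16.4% of all genes were lower without overlap. Replicate numbers did not pair the libraries. The deviations of same-numbered libraries correlated at -0.00, 0.18, and -0.12. The sign turned in at least 1 setting for 9 members, whose main log2 fold changes lay between -0.45 (ACAT2) and 0.11 (ACLY). Under quantile and 75th percentile scaling SCAP was at 0.0059 and 0.0048 and NPC1 at 0.028 and 0.020. With a library left out, SCAP ranged from -0.094 to 0.077, NPC1 from -0.13 to 0.22, SC5D from -0.38 to 0.15, ELOVL5 from -0.36 to 0.20, NSDHL from -0.26 to 0.061, EBP from -0.46 to 0.13, ACLY from -0.0066 to 0.20, ACAT2 from -0.75 to 0.015, and FADS2 from -0.43 to 0.065. The cause was not tested. A fit that leaves out 1 library rests on 2 cultures of that line. The 3 cultures per line limit the precision of every value.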
